A study of Homo sapiens with 4 samples.

Results

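The genes described here are the transcriptional coactivators YAP1 and WWTR1, the DNA-binding factor TEAD1, and 7 genes that are widely used as targets of these factors or act on the Hippo pathway, namely CTGF, CYR61, AMOTL1, AMOTL2, LATS2, AJUBA, and NUAK2. They are 10 of the 20372 genes of the deposited table, where CTGF and CYR61 stand for the genes now called CCN2 and CCN1. Of the 10 genes, 10 had enough counts to be tested, among 12876 genes tested in all. RNA was sequenced from TPC1 cells, an established human papillary thyroid carcinoma line that carries the CCDC6-RET fusion, to follow gene expression during exposure to the RET inhibitor BLU6864. Both groups received BLU6864 in the same medium, with 2 libraries after 6 h and 2 libraries after 24 h of exposure. The dose is 100 µM in the sample labels but 100 nM in the methods. The labels mark the 24 h libraries, and not the 6 h libraries, as a re-analysis, so that this difference and the time of exposure cannot be told apart. Libraries without BLU6864 were not analysed here, and every comparison is of 24 h with 6 h of exposure.

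In the Hippo pathway, the kinases MST1 and MST2 activate LATS1 and LATS2, which phosphorylate YAP and TAZ, the protein made from WWTR1, and keep them out of the nucleus. Unphosphorylated YAP and TAZ enter the nucleus and bind TEAD factors at their target genes, among which are CTGF and CYR61 as well as genes that in turn restrain YAP, such as LATS2 and AMOTL2. YAP and TAZ respond to cell density, cell shape, and the actin cytoskeleton, and in several cancers their activity is known to bear on the response to kinase inhibitors.

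The 24 h libraries held 26486456 and 27457040 counts in total and the 6 h libraries 23917056 and 26829072. Replicates differed beyond sampling noise and were kept as separate replicates. Nothing in the labels says that they came from separate cultures, so that the P values measure only the spread between these libraries, which may be technical. PAX8, a transcription factor that marks thyroid follicular cells, had 20645 and 22045 normalized counts at 6 h and 19961 and 21078 at 24 h, and its groups overlapped. FOXE1 and HHEX, other thyroid factors, and TG, which encodes thyroglobulin, were also detected. NKX2-1 and TSHR, which mark differentiated thyroid cells, had 0 counts in all 4 libraries, and SLC5A5, the iodide transporter, had at most 7. Among 6 thyroid genes with enough counts for a test, 2 were higher and 1 was lower at 24 h. Of all genes tested, 33% were higher and 32.6% lower. The keratins KRT8 and KRT18 were detected in every library, whereas EPCAM and CDH1, which mark epithelia, had at most 11 raw counts, and 2 epithelial genes were higher and 1 was lower, with 4 tested. Markers of white blood cells summed to at most 6.97 normalized counts in a library. The fibroblast markers summed to 613 and 629 normalized counts at 6 h and 256 and 294 at 24 h, with PDGFRB the most abundant, and COL1A2 and COL3A1 were at 0 in every library. COL1A1 and PDGFRB were lower at 24 h and LUM was higher, and the other 4 fibroblast genes were not tested. The endothelial markers summed to 542 and 507 at 6 h and 47.8 and 26.3 at 24 h, nearly all from KDR, while CDH5 had at most 1 raw count. PECAM1 was not analysed here. TPC1 is a cell line, so these markers are given as RNA levels of the culture and not as numbers of other cell types. The cause of their differences was not tested.

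At 24 h, 10 of the 10 genes were higher than at 6 h and none was lower, at an adjusted P under 0.05 in the quasi-likelihood test of edgeR with Benjamini-Hochberg adjustment. Among all genes tested, 33% were higher and 32.6% lower by the same rule, so that a call alone is common in these data. The median log2 fold change of the 10 genes was 1.26, against 0.0029 over all genes tested, and a positive value is a higher count at 24 h. The 10 genes were chosen with earlier results of these data known, so these contrasts with all genes are descriptive only. A log2 fold change over 1 with an adjusted P under 0.05 was found for 6 of the 10 genes, CYR61, AMOTL2, AJUBA, NUAK2, CTGF, and AMOTL1, and for 7.17% of all genes tested, and AMOTL1 was under it with library size alone (0.99), without replicate 2 of 24 h (0.95), and without replicate 2 of 6 h (0.99). By a size cutoff, a log2 fold change over 0.5 in size with an unadjusted P under 0.01, which takes the downward cutoff of the methods in both directions, 8 of the 10 were higher and 0 lower, against 17.4% and 17.7% of all genes tested, and TEAD1 and YAP1 did not reach it. Both 24 h libraries lay above both 6 h libraries in 10 of the 10 genes and in 41% of all genes tested. The normalized counts of the 10 genes summed to 19392 and 18888 at 6 h and to 42582 and 44716 at 24 h, a 2.28-fold higher sum. Without CYR61 the sums were 18529.9 and 18114 at 6 h and 32875 and 33970.3 at 24 h, or 1.82-fold.

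**Figure D1:**
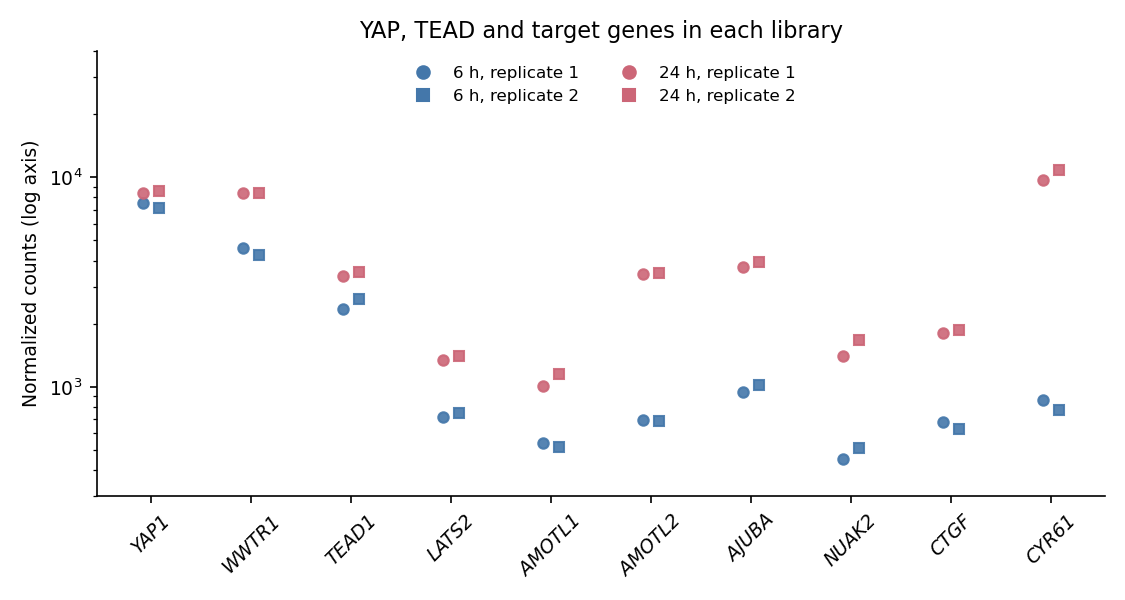
Normalized counts of the 10 genes in each of the 4 libraries on a log axis, with circles for replicate 1 and squares for replicate 2. Both 24 h libraries (red) lie above both 6 h libraries (blue) for each gene, with the widest gap for CYR61 and the narrowest for YAP1.

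CYR61 and CTGF encode secreted matrix proteins of the CCN family that bind integrins, and both are among the most used readouts of YAP and TEAD. CYR61 (ENSG00000142871) lies on chromosome 1 from 86046400 to 86049600 in hg19. All hg19 gene positions given here are rounded, so that exact ends and gene lengths cannot be read from them. CYR61 had 863 and 773 normalized counts at 6 h and 9708 and 10745 at 24 h. Both 24 h libraries were more than 10 times above the 6 h libraries, and the groups were far apart. Its log2 fold change of 3.65 (standard error 0.0865, 95% confidence interval 3.47 to 3.82) had an adjusted P of 9.11e-23 in edgeR's quasi-likelihood test and ranked 38 from the top among the 12876 genes tested. CTGF (ENSG00000118523), on chromosome 6 from 132269000 to 132273000, had 681 and 626 normalized counts at 6 h and 1808 and 1866 at 24 h. The libraries of a time point were close to each other and the groups did not overlap. The log2 fold change of CTGF was 1.49 (standard error 0.0768, 95% confidence interval 1.33 to 1.65, adjusted P = 2.07e-15), at rank 424. Per kilobase of transcript, the level of CYR61 went from 359 to 4489 normalized counts and that of CTGF from 279.7 to 786. The ratio of CYR61 to CTGF per kilobase within a library was 1.30 and 1.27 at 6 h and 5.51 and 5.91 at 24 h, so that the pair was near equal at first and CYR61 was well in excess later.

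Both genes were compared with the 10746 genes that were tested and had a mean normalized count of at least 100, by the Euclidean distance of log2 CPM centred over the 4 libraries. The 3 genes most like CTGF were GDF15, a secreted stress-response cytokine, with a distance of 0.0233, RCL1 with 0.0339, and VAT1 with 0.0395. The 3 genes most like CYR61 were SPNS2, a sphingosine-1-phosphate transporter, with a distance of 0.272, and the interferon-induced genes OAS2 and IFI44L with 0.315 and 0.326. With 4 libraries in 2 groups, such likeness reflects mainly a fold change of similar size.

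The promoter of CTGF holds the core of the TEAD binding motif, GGAATG, at 3 places. It is printed here with 4 other promoters of the 10 genes that hold this core before the start. Promoter windows from RefSeq (GRCh38.p14), from 250 bases before to 50 after the start, were matched for 8 of the 10 genes, all but CYR61 and TEAD1. Each line gives the 250 bases before the start, 5′ to 3′ on the strand of the gene, and capitals mark GGAATG or CATTCC, its letters on the other strand. The positions are chr6:131951373-131951622 (minus strand) for CTGF, chr1:205321746-205321995 (minus strand) for NUAK2, chr3:134374448-134374697 (minus strand) for AMOTL2, chr11:102110197-102110446 (plus strand) for YAP1, and chr14:22976843-22977092 (minus strand) for AJUBA.
CTGF: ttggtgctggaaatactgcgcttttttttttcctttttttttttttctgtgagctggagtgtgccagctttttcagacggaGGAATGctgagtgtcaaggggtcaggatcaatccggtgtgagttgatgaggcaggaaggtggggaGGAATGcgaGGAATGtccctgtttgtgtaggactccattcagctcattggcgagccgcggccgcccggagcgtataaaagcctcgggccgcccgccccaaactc
NUAK2: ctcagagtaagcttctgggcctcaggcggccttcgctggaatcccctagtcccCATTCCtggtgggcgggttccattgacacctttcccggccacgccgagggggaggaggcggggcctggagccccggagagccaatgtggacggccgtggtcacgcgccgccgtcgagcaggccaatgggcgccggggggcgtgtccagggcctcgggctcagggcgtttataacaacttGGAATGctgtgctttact
AMOTL2: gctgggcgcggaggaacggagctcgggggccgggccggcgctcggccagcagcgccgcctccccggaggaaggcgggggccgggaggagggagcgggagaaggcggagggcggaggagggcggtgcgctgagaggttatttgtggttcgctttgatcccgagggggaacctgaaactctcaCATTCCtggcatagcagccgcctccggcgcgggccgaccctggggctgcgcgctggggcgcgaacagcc
YAP1: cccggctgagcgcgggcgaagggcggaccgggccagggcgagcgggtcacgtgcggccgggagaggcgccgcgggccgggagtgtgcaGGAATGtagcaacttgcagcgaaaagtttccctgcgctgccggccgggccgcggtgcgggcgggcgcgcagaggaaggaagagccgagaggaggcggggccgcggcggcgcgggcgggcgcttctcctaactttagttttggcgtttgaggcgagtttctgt
AJUBA: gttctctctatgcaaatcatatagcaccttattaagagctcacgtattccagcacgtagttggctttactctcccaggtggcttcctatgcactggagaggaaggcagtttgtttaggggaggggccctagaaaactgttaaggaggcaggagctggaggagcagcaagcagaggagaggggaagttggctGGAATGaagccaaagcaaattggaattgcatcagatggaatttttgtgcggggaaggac

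In CTGF the matches began at -169, -104, and -95 from the start, and 3 or more matches were found in 45 of 35116 windows, or 0.128%. NUAK2 had a match on the other strand at -197 and another on the strand of the gene at -18. AMOTL2 had a match on the other strand at -69. On the strand of the gene, AJUBA had a match at -59 and YAP1 at -162. In AMOTL2 and AJUBA the match was in the second of 2 windows. LATS2 had a match 10 bases after the start, while the windows of AMOTL1 and WWTR1 had none. Thus 6 of the 8 genes with a window held GGAATG on either strand, and 5 of 8 held it before the start. Of the 10446 tested genes with a window, 15.2% held it and 13.4% held it before the start, and it was found in 14% of all windows. The AP-1 core TGANTCA was in the windows of 0 of the 8 genes and in 7.37% of the tested genes. The CArG box of serum response factor was in 0 of the 8 and in 1.6%. With 8 genes and shares this low, 0 matches does not set them apart from the tested genes. Of the 22 genes of a YAP target signature, 16 had a window, of which 9 held GGAATG and 2 the AP-1 core. Without the genes shared with the 10, these were 5 and 2 of 12. A match in a window describes its letters only, and binding was not measured here. Many of these genes were listed as known TEAD targets, so a high share with the TEAD core can come from that choice. The share therefore does not bear on the difference between 24 h and 6 h.

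YAP1 and WWTR1 encode the coactivators YAP and TAZ, which share their TEAD partners. YAP1 (ENSG00000137693), on chromosome 11 from 101981000 to 102104000, had 7534 and 7104 normalized counts at 6 h and 8373 and 8553 at 24 h. The 24 h libraries were above the 6 h libraries by a small margin. Its log2 fold change was 0.21 (standard error 0.0731, 95% confidence interval 0.059 to 0.36, edgeR adjusted P = 0.0142), the smallest of the 10 genes. The call was lost without replicate 2 of 24 h (log2 fold change 0.20, adjusted P = 0.0836) and without replicate 2 of 6 h (0.17, adjusted P = 0.0675), and over all alternatives the adjusted P lay between 0.00329 and 0.0836. WWTR1 (ENSG00000018408), on chromosome 3 from 149235000 to 149455000, had 4597 and 4263 normalized counts at 6 h and 8382 and 8358 at 24 h. The libraries of each time point were close and the groups were well separated. The log2 fold change of WWTR1 was 0.92 (standard error 0.0732, 95% confidence interval 0.77 to 1.07, adjusted P = 1.99e-11). Per kilobase, YAP1 was at 1355 normalized counts at 6 h and 1567 at 24 h, and WWTR1 at 879 and 1662. The ratio of WWTR1 to YAP1 per kilobase within a library was 0.654 and 0.643 at 6 h and 1.07 and 1.05 at 24 h. YAP1 RNA was thus the more abundant of the pair at 6 h in both libraries, and the pair was near equal at 24 h.

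TEAD1 is 1 of the 4 TEAD factors that tether YAP and TAZ to DNA. TEAD1 (ENSG00000187079), on chromosome 11 from 12696000 to 12966300, had 2359.8 and 2632 normalized counts at 6 h and 3369 and 3523 at 24 h, with no overlap between the groups. Its log2 fold change was 0.46 (standard error 0.0734, 95% confidence interval 0.31 to 0.62, edgeR adjusted P = 3.95e-06). The other TEAD genes did not all follow it. TEAD2 had 1939.9 and 2007 normalized counts at 6 h and 1686 and 1649 at 24 h and was lower, with a log2 fold change of -0.24 (adjusted P = 0.00347). TEAD4 had a log2 fold change of 0.21 with an adjusted P of 0.0429, and it was not called by DESeq2, with library size alone, or without any 1 of the 4 libraries, with adjusted P between 0.0196 and 0.210 over the alternatives. TEAD3 was at 0.10 (95% confidence interval -0.11 to 0.31) and its groups overlapped. Per kilobase, the ratio of TEAD1 to TEAD4 was 0.824 and 0.859 at 6 h and 0.966 and 1.05 at 24 h. VGLL4, a TEAD cofactor that competes with YAP, had a log2 fold change of 0.027 (95% confidence interval -0.13 to 0.18) and overlapping groups. VGLL3 had 8 and 18 raw counts at 6 h and 9 and 19 at 24 h, too few to show a difference of moderate size (log2 fold change 0.063, 95% confidence interval -0.86 to 0.98). VGLL1 and VGLL2 had 0 counts in every library. Of the 10 TEAD and coactivator genes, 8 were tested, with a median log2 fold change of 0.15. At 24 h, 4 were higher and 1 lower, against 33% and 32.6% of all genes tested (17.4% and 17.7% by the size cutoff). Without any 1 library the number higher was 2 or 3, and by the size cutoff it was 1.

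LATS2, a kinase that phosphorylates YAP and TAZ and is itself a YAP target, was higher at 24 h while its paralog LATS1 was not called. LATS2 (ENSG00000150457), on chromosome 13 from 21547200 to 21635700, had 721 and 754 normalized counts at 6 h and 1340.0 and 1408 at 24 h, with no overlap between the groups. The log2 fold change was 0.90 (standard error 0.0775, 95% confidence interval 0.74 to 1.06, edgeR adjusted P = 1.01e-10). LATS1 had 881 and 847 normalized counts at 6 h and 829 and 849.5 at 24 h, and its groups overlapped. Its log2 fold change was -0.041, with a 95% confidence interval of -0.21 to 0.12. The ratio of LATS2 to LATS1 per kilobase was 1.09 and 1.18 at 6 h and 2.15 and 2.20 at 24 h, higher in both 24 h libraries.

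The angiomotins are scaffolds that bind YAP and hold it at junctions and on actin. AMOTL2 (ENSG00000114019), on chromosome 3 from 134075000 to 134094000, had 692 and 691 normalized counts at 6 h and 3462 and 3494 at 24 h. The libraries of a time point were nearly equal and the groups were far apart. The log2 fold change of AMOTL2, 2.33 (standard error 0.0745, 95% confidence interval 2.18 to 2.48, edgeR adjusted P = 5.45e-20), was at rank 153 among the genes tested. AMOTL1 (ENSG00000166025), on chromosome 11 from 94439600 to 94609900, had 542 and 514 normalized counts at 6 h and 1012 and 1145 at 24 h. Both 24 h libraries of AMOTL1 were above both 6 h libraries. Its log2 fold change was 1.03 (standard error 0.0869, 95% confidence interval 0.85 to 1.21, adjusted P = 6.06e-11). AMOT, the founding gene of the family, had 440.4 and 411 normalized counts at 6 h and 960.4 and 1037 at 24 h (log2 fold change 1.23, adjusted P = 2.19e-12). Thus 3 of the 3 angiomotin genes were higher, against 33% of all genes tested. AMOTL2 was higher by the most, and the median log2 fold change of the 3 genes was 1.23. The ratio of AMOTL2 to AMOT per kilobase was 2.46 and 2.63 at 6 h and 5.64 and 5.27 at 24 h, whereas that of AMOTL1 to AMOT was 1.04 and 1.06 and then 0.894 and 0.936.

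AJUBA encodes a LIM-domain protein of cell junctions that binds LATS kinases and restrains them. AJUBA (ENSG00000129474), on chromosome 14 from 23440400 to 23451900, had 949 and 1021 normalized counts at 6 h and 3727 and 3952 at 24 h. The groups were far apart compared with the spread within a time point. The log2 fold change was 1.96 (standard error 0.0753, 95% confidence interval 1.81 to 2.12, edgeR adjusted P = 3.17e-18), at rank 239. The position of AJUBA overlaps that of RP11-298I3.5, which had 0 counts in the 4 libraries, and none of the other 9 genes overlaps a gene of the table. The Ajuba and zyxin LIM proteins link junctions and focal adhesions to actin. Of the 7 genes, 6 were higher and 1 lower at 24 h, against 33% and 32.6% of all genes tested. The median log2 fold change of the 7 genes was 1.003. WTIP, a close relative of AJUBA, had 111 and 121 normalized counts at 6 h and 355 and 384 at 24 h (log2 fold change 1.67, adjusted P = 6.11e-12). FBLIM1, ZYX, and TRIP6, proteins of focal adhesions, had log2 fold changes of 1.02, 1.003, and 0.94, each with an adjusted P of at most 1.45e-11. For LPP the log2 fold change of 0.34 (adjusted P = 0.00199) was lost in DESeq2 (adjusted P = 0.166) and without replicate 2 of 24 h (0.12, adjusted P = 0.250), within a range of 2.51e-07 to 0.250 over the alternatives. LIMD1, which also binds LATS kinases, was lower, with 1366 and 1274 normalized counts at 6 h and 1155 and 1092 at 24 h (log2 fold change -0.23, adjusted P = 0.00834). That call was lost without replicate 2 of 24 h (adjusted P = 0.0784) and without replicate 1 of 6 h (adjusted P = 0.0916), in a range of 0.00100 to 0.0916. The ratio of AJUBA to LIMD1 per kilobase was 1.91 and 2.20 at 6 h and 8.86 and 9.94 at 24 h.

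NUAK2 is an AMPK-related kinase that acts on actomyosin, and it is both a target of YAP and an inhibitor of LATS kinases. NUAK2 (ENSG00000163545), on chromosome 1 from 205271000 to 205291000, had 454 and 509 normalized counts at 6 h and 1401 and 1672 at 24 h. Replicate 2 was the higher library at each time point, and the groups did not overlap. Its log2 fold change was 1.67 (standard error 0.0915, 95% confidence interval 1.48 to 1.86, edgeR adjusted P = 7.60e-15). The paralog NUAK1 had 412 and 442 normalized counts at 6 h and 637 and 598 at 24 h and was higher by less (log2 fold change 0.53, adjusted P = 1.60e-05). The ratio of NUAK2 to NUAK1 per kilobase was 1.87 and 1.95 at 6 h and 3.73 and 4.74 at 24 h, so that NUAK2 was the more abundant in all 4 libraries.

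**Figure D2:**
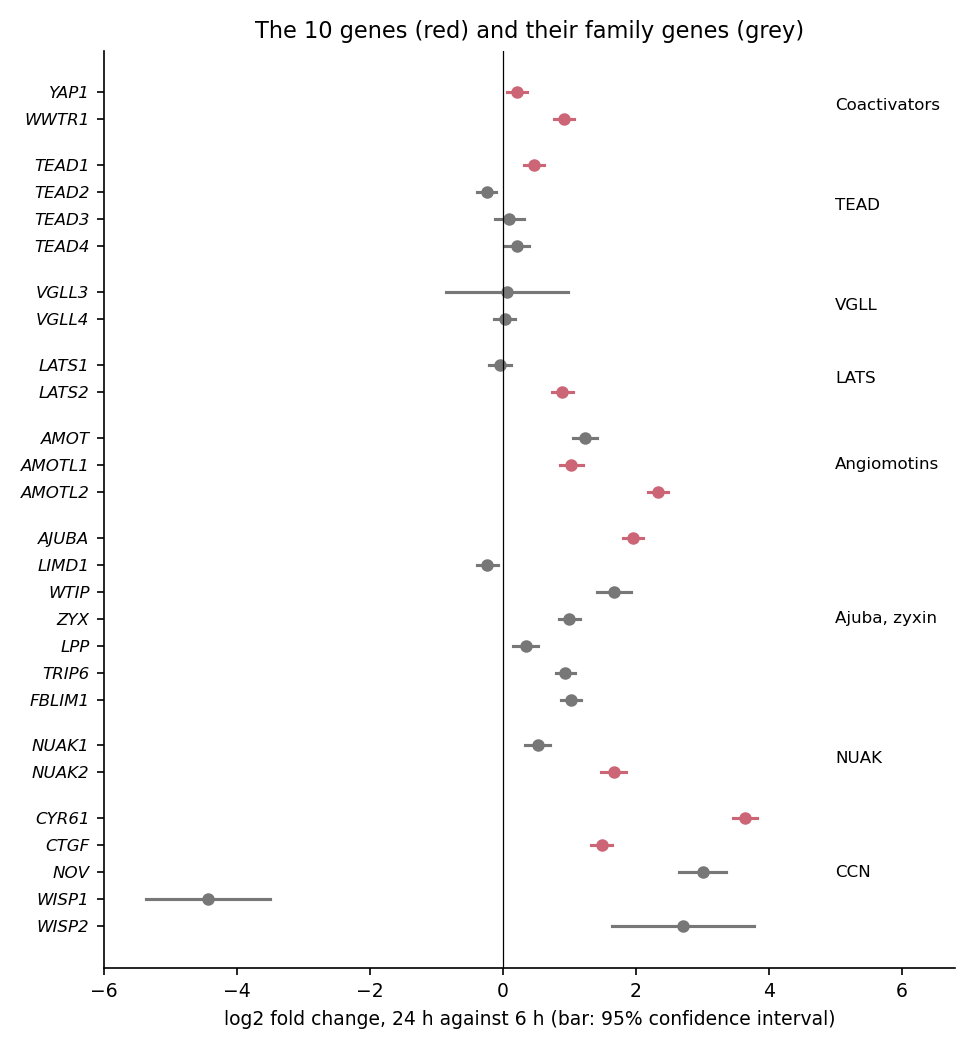
log2 fold change of 24 h against 6 h from edgeR for the 10 genes (red) and the tested genes of their families (grey), with bars for the 95% confidence interval. CYR61 and AMOTL2 lie farthest to the right among the 10 genes, LATS1 and VGLL4 straddle 0, and WISP1 lies far to the left.

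**Figure D3:**
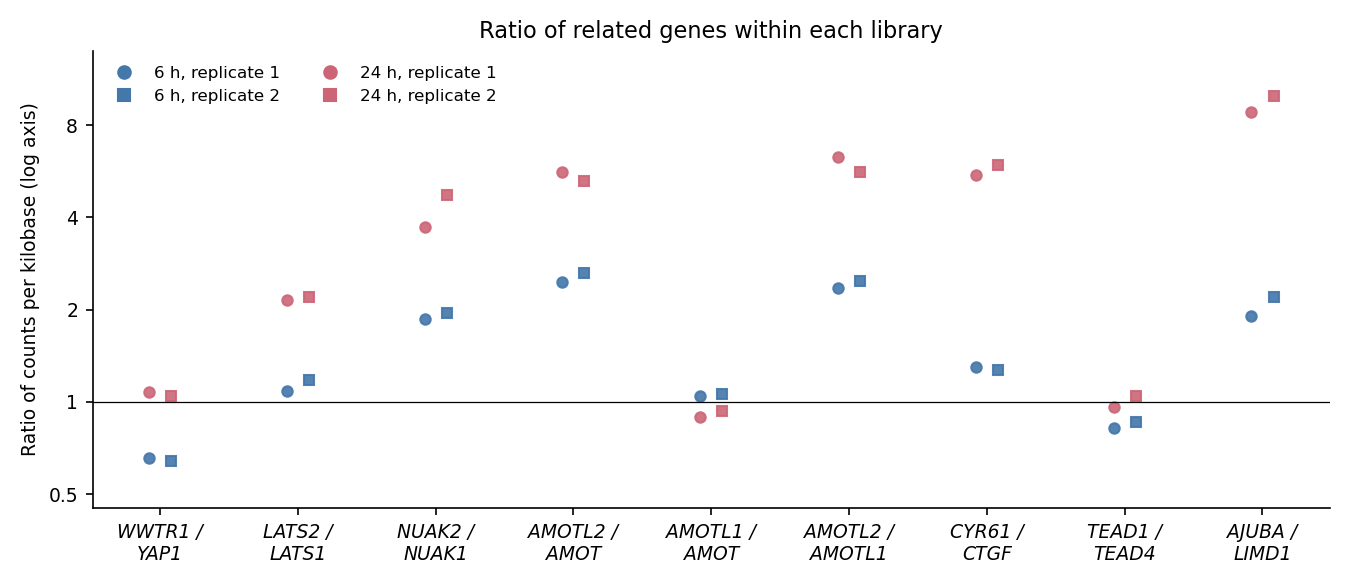
Ratio of 9 pairs of related genes within each library, in normalized counts per kilobase of transcript on a log axis, with the line at 1 for equal levels. In 8 pairs both 24 h libraries (red) lie above both 6 h libraries (blue), with WWTR1 over YAP1 crossing the line, while AMOTL1 over AMOT goes the other way.

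In the CCN family 4 genes, CYR61 and CTGF among them, were higher and 1, WISP1, was lower at 24 h of the 5 that were tested. Over all genes tested, 33% were higher and 32.6% lower. NOV, a CCN protein linked to adhesion, had 33.5 and 38.4 normalized counts at 6 h and 267 and 314 at 24 h (log2 fold change 3.01, standard error 0.172, edgeR adjusted P = 1.84e-14). WISP2 had 3 and 3 raw counts at 6 h and 22 and 20 at 24 h, a ratio of 6.78 after scaling with an exact 95% counting interval of 2.87 to 19.5 (adjusted P = 5.51e-05). WISP1 moved the other way and was nearly absent at 24 h. It had 43 and 67 raw counts at 6 h and 1 and 4 at 24 h, and the scaled 6 h count was 22.7 times the 24 h count, with a counting interval of 9.44 to 71.3 (adjusted P = 2.77e-09). These intervals cover counting error only, and the log2 fold change of WISP1, -4.43 in all libraries, was -5.63 without replicate 2 of 24 h and -3.80 without replicate 1 of 24 h. WISP3 had 2 and 2 raw counts at 6 h and 0 and 0 at 24 h and was not tested. The median log2 fold change of the 5 genes was 2.71, which is the value of WISP2 and so rests on 3 raw counts in each 6 h library. With at least 10 counts required in every library, 3 genes were tested and 0 were lower, with a median of 3.01, since WISP1 and WISP2 each passed the filter through the time point where they were higher.

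A list of 22 YAP target genes from several tissues, which shares 5 genes with the 10 described above, was mostly higher at 24 h. By the adjusted P, 17 of its 21 tested genes rose and 2 fell, against 33% and 32.6% of all genes tested, with a median log2 fold change of 1.07. Without the 5 shared genes, 12 of 16 were higher and 2 lower, with a median of 0.89. This list too was chosen with earlier results of these data known. MYOF, a membrane repair protein, had 9557 and 8965 normalized counts at 6 h and 27811 and 29643 at 24 h (log2 fold change 1.63, edgeR adjusted P = 1.02e-15). TGFB2, a growth factor of the TGF-beta family, had 418 and 385 normalized counts at 6 h and 1004 and 1194 at 24 h (log2 fold change 1.46, adjusted P = 3.06e-13). IGFBP3, which binds insulin-like growth factors, and AXL, a receptor tyrosine kinase, had log2 fold changes of 1.07 and 0.92. CCDC80, ASAP1, ARHGEF17, and RBMS3 were higher by 1.36, 1.26, 1.16, and 1.11, and CRIM1 by 0.82, on the log2 scale. PTPN14, a phosphatase that binds YAP and restrains it, was at 0.86 (adjusted P = 2.64e-09). In each of these genes the lower 24 h library was above the higher 6 h library. The exceptions were large. NT5E, the ecto-enzyme CD73, had 17526 and 15556 normalized counts at 6 h and 6956 and 6538 at 24 h (log2 fold change -1.29, adjusted P = 1.12e-13). F3, the tissue factor that starts blood clotting, had 266 and 224 normalized counts at 6 h and 79.7 and 71.0 at 24 h (log2 fold change -1.70, adjusted P = 2.05e-10). FOXF2 and DOCK5 were not called, with log2 fold changes of -0.018 (95% confidence interval -0.20 to 0.16) and -0.11 (-0.27 to 0.048). ANKRD1, a much used YAP target, had at most 1 raw count in a library and was not tested.

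**Figure D4:**
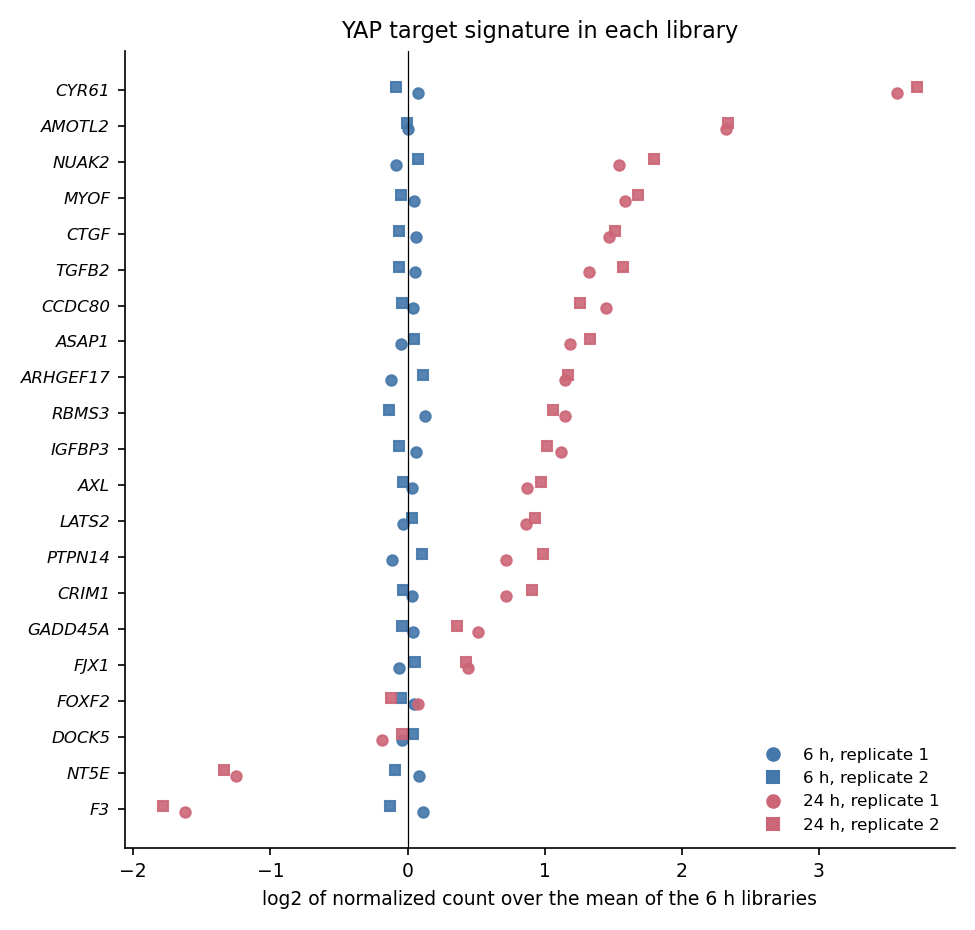
The 21 tested genes of the YAP target signature, with the log2 of the normalized count in each library over the mean of the 6 h libraries. For most genes the 24 h libraries (red) lie to the right of the 6 h libraries (blue), with CYR61 at the top, while NT5E and F3 at the bottom lie to the left.

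The rest of the Hippo pathway moved in both directions. Over 4 lists of Hippo genes, 51 genes were tested, and 25 were higher and 14 lower at 24 h, and their median log2 fold change was 0.20. Without the 8 of them that are among the 10 genes, 17 of 43 were higher and 14 lower, with a median of 0.072, where 33% of all genes tested were higher and 32.6% lower. By the size cutoff, 10 of the 43 were higher and 3 lower, against 17.4% and 17.7% of all genes tested. Of the 21 kinase core and scaffold genes, 10 were higher and 7 lower (median 0.20, and 0.13 to 0.27 without 1 library). Among those higher were LATS2, AMOTL1, and AMOTL2, the 3 genes shared with the 10. STK4 and STK3, which encode MST1 and MST2, were both lower. Their log2 fold changes were -0.32 and -0.33 (edgeR adjusted P = 3.29e-04 and 1.86e-04). WWC1, also called KIBRA, which activates LATS kinases, had 366 and 403 normalized counts at 6 h and 2377 and 2125 at 24 h (log2 fold change 2.55, standard error 0.0849, edgeR adjusted P = 1.39e-19). FRMD6, another upstream scaffold, was at 0.73 (adjusted P = 5.95e-09). MAP4K4, a kinase that can phosphorylate LATS1 and LATS2, was lower, with 10949.5 and 10917 normalized counts at 6 h and 6836 and 6628 at 24 h (log2 fold change -0.70, adjusted P = 4.06e-09). By the size cutoff it was the 1 gene of this list that was lower. The smallest change was that of MOB1B, a LATS cofactor, at 0.00065 (95% confidence interval -0.15 to 0.15). MOB1B overlaps DCK, which was lower at 24 h, and since the strand setting of the counting is not stated, counts of overlapping genes are uncertain.

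Among 13 brakes of the pathway outside the kinase core, 4 genes, AJUBA, WTIP, NUAK2, and NUAK1, were higher and 5 lower at 24 h. The shares over all genes tested were 33% and 32.6%. By the size cutoff, 4 of the 13 were higher and 1 lower, against 17.4% and 17.7% of all genes tested. The median log2 fold change of the 13 was 0.039, and it had the opposite sign with library size alone (-0.0040) and without replicate 2 of 6 h (-0.048). STRN, a subunit of the phosphatase complex that acts on MST kinases, had 1960.4 and 1885 normalized counts at 6 h and 1339 and 1281 at 24 h (log2 fold change -0.55, edgeR adjusted P = 1.49e-07). It was the brake that was lower by the size cutoff. By the adjusted P, fewer of the brakes were lower without replicate 2 of 24 h or without replicate 1 of 6 h. STRN3, of the same complex, was at 0.039 (95% confidence interval -0.13 to 0.20), with overlapping groups. Of 13 atypical cadherin and polarity genes, 9 were tested, and 7 were higher and 1 lower (median 0.48). By the size cutoff 4 were higher and 1 lower, against 17.4% and 17.7% of all genes tested. The median is the value of FAT1, whose call was lost in DESeq2 (adjusted P = 0.135) and without replicate 2 of 24 h (0.22, adjusted P = 0.0567), and 6 genes were higher in each case. FAT4, an atypical cadherin upstream of the pathway, had 154 and 161 normalized counts at 6 h and 493 and 551 at 24 h (log2 fold change 1.72, adjusted P = 3.15e-13). CRB3, a polarity protein of the apical membrane, had 17.3 and 21.1 normalized counts at 6 h and 105 and 93.4 at 24 h (log2 fold change 2.35, adjusted P = 2.61e-09), but it overlaps SLC25A23, which was also higher. SCRIB, a polarity scaffold, was at 0.52 (adjusted P = 8.04e-07), and FAT2 at 1.47 with 8 and 16 raw counts at 6 h and 37 and 32 at 24 h. FAT2, which is 1 of the 7 genes higher, passed the filter through the 24 h libraries, where it was higher. With at least 10 counts required in every library it was not tested. DCHS1, the ligand of FAT4, had 30 and 35 raw counts at 6 h and 10 and 20 at 24 h and was lower (log2 fold change -1.15, adjusted P = 0.00428). That call was lost in DESeq2 (adjusted P = 0.0536) and without replicate 1 of 24 h (-0.76, adjusted P = 0.0902), in a range of 0.00111 to 0.0902. DLG1 was not called, at 0.10 (95% confidence interval -0.041 to 0.25).

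**Figure D5:**
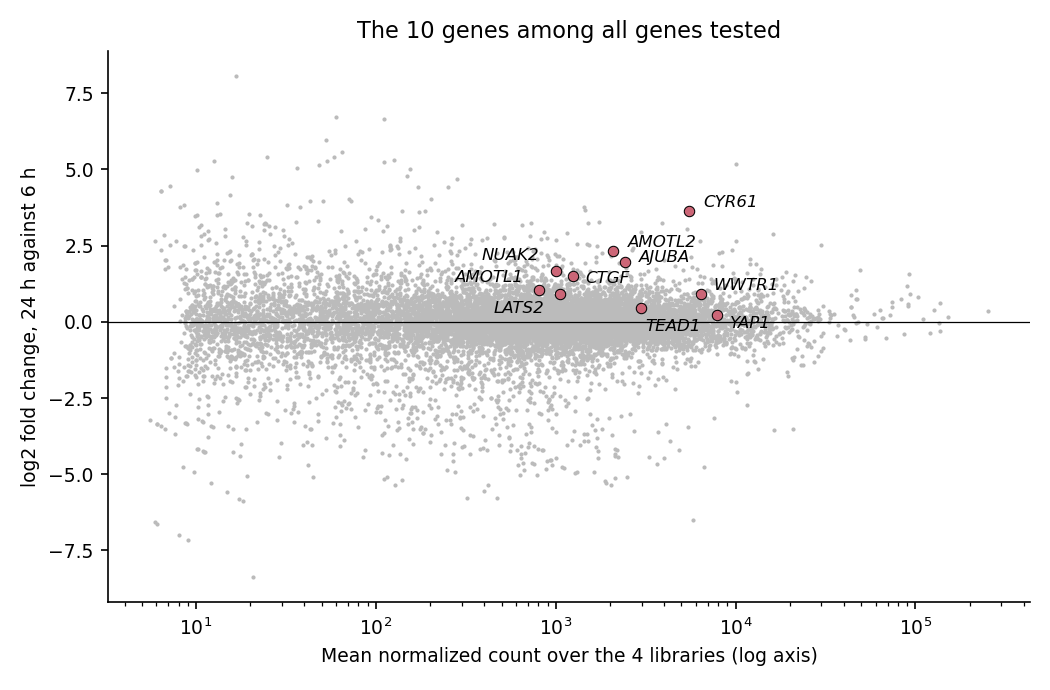
Each grey point is 1 of the 12876 genes tested, by its mean normalized count on a log axis and its log2 fold change of 24 h against 6 h, with the 10 genes in red. All 10 lie above 0 among genes of moderate to high count, and YAP1 and TEAD1 lie within the bulk of all genes.

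The make-up of the 10 genes' RNA also differed between the time points. CYR61 held 4.45% and 4.09% of the counts of the 10 genes at 6 h and 22.8% and 24.0% at 24 h. YAP1 held 38.8% and 37.6% at 6 h and 19.7% and 19.1% at 24 h. YAP1 was thus the gene with the most counts of the 10 at 6 h, and CYR61 at 24 h.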

How the data were processed

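RNA of TPC1 cells was sequenced after 6 h or 24 h of BLU6864, with 2 libraries each. The authors aligned reads with STAR to hg19 (the labels and the methods differ in STAR version and read type) and deposited the raw count of reads per gene. The counting program and its strand setting are not given in the sources used here. The authors also deposited a normalized signal, the count divided by 1 DESeq2 size factor per library, and the log2 fold change, standard error, and P values of their comparison. None of these was used for the values given here. The test on raw counts used edgeR 4.0.16 under R 4.3.3 (filterByExpr, TMM, quasi-likelihood test, Benjamini-Hochberg adjustment over 12876 genes), without a block. Normalized counts are raw counts over the TMM-scaled library size relative to its mean, and levels per kilobase use the canonical transcript of GENCODE v44. The genes and lists were chosen with earlier results of these data known. Named genes are the 10 genes, their families, and, of the YAP signature and Hippo lists, those with an adjusted P under 0.05 and a log2 fold change over 0.5 in size, plus the gene of each list with at least 100 mean normalized counts that changed least. DOCK5 and ANKRD1 of the signature, LATS1, STK3, STK4, FAT1, and the overlapping genes were named after their values were seen, and so was MARK4. Alternatives were DESeq2 1.42.0, no filter, upper quartile scaling, library size alone, at least 10 counts in every library, a replicate block, each library left out, and the size cutoff. Python 3.11.15 and matplotlib 3.10.9 drew the plots.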

Additional observations from a re-analysis of the deposited data

How the results depend on the processing

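With 2 libraries per time point, the spread is estimated mostly from all genes together, and a fit without 1 library assumes that the lone library of a group varies like the other group. The number of the 10 genes higher at 24 h was 10 under DESeq2, under both other scalings, and under both other filters, 8 by the size cutoff, and 9 to 10 without 1 library, where YAP1 was lost. The median of all genes tested was -0.040 with library size alone and 0.033 with upper quartile scaling. Of the values of lists under the alternatives, 268 stayed close to the value reported, 19 moved, and 2 changed sign, and of those of single genes 697 kept their direction and call, 23 lost the call, 1 gained it, and 15 changed sign, none of them in a gene called at 24 h. The cause of these changes was not tested.

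By the size cutoff, which also asks for a minimum size, the number of genes lower was 1 in the kinase core, 1 among the brakes, 0 among the TEAD and coactivator genes, and 0 in the Ajuba and zyxin family, and the number higher was 1 among the TEAD and coactivator genes and 4 among the cadherin and polarity genes. Over all genes tested, 17.4% were higher and 17.7% lower by the size cutoff. DESeq2 left 0 cadherin and polarity genes lower. For the CCN family, at least 10 counts in every library left 0 genes lower and a median of 3.01, since WISP1 and WISP2 were then not tested, and without a filter the median was 2.10, since WISP3 was added. The median of the brakes was -0.0040 with library size alone and -0.048 without replicate 2 of 6 h. Leaving out 1 library in turn gave a median of 0.98 to 1.12 for the YAP target signature and -0.048 to 0.054 for the brakes. The median was then 0.13 to 0.27 for the kinase core and 0.45 to 0.61 for the cadherin and polarity genes. The number of genes lower was then 3 to 5 among the brakes, 0 to 1 among the cadherin and polarity genes, and 0 to 1 in the Ajuba and zyxin family, and the number higher among the TEAD and coactivator genes was 2 to 3. The log2 fold changes that changed sign were all close to 0 or of low counts. FOXF2 was at 0.012 with upper quartile scaling and at -0.11 to 0.081 without 1 library. MOB1B was at -0.0030 in DESeq2, -0.042 with library size alone, and -0.093 to 0.10 without 1 library. STRN3 was at -0.0040 with library size alone and -0.062 to 0.14 without 1 library, and VGLL4 at -0.015 and -0.041 to 0.10. Without 1 library, MARK4 was at -0.15 to 0.013 and VGLL3 at -0.54 to 0.67.

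With the replicate number as a block, 10 of the 10 genes were higher and 0 lower, 17 genes of the YAP target signature were higher and 2 lower, and over all genes tested 4524 were higher and 4448 lower, against 4247 and 4196 without it. The deviations of libraries with the same number from their group means had a correlation of 0.0844 across genes, which cannot settle whether they were prepared together. The labels give only a shared number, and no pairing was used in the main test. Genes are not independent replicates.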

Other observations

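Cell type markers differed between 6 h and 24 h in both directions. KDR, the VEGF receptor 2 of endothelium, had 524 and 496 normalized counts at 6 h and 43.8 and 21.4 at 24 h (log2 fold change -3.97, standard error 0.172, edgeR adjusted P = 4.83e-17). VWF, another endothelial marker, had 16 and 11 raw counts at 6 h and 3 and 5 at 24 h and was lower (adjusted P = 0.00710). VWF passed the filter through the 6 h libraries, where it was higher, so no conclusion is drawn from its call. CDH5, which defines endothelium, had at most 1 raw count in a library. PDGFRB, a receptor of mesenchymal cells, had 327 and 358 normalized counts at 6 h and 111 and 134 at 24 h (log2 fold change -1.48, adjusted P = 1.21e-10), and COL1A1 had a log2 fold change of -1.57 (adjusted P = 2.19e-09), whereas LUM was higher (0.75, adjusted P = 0.00436) and COL1A2 and COL3A1 were at 0. KRT19, an epithelial keratin, had 108 and 119.9 normalized counts at 6 h and 36.9 and 38.9 at 24 h (log2 fold change -1.59, adjusted P = 9.57e-08), while KRT7 (0.84, adjusted P = 4.49e-07) and KRT18 (0.37, adjusted P = 1.85e-04) were higher. Among thyroid genes, TG was lower (-1.09, adjusted P = 2.77e-07), and FOXE1 (0.84, adjusted P = 1.37e-07) and DUOX1 (0.97, adjusted P = 3.18e-04) were higher.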
